A study of Mus musculus with 32 samples.

Results

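The 8 germinal vesicle (GV) oocytes of the study were divided by their level of Ccnb1, the transcript of cyclin B1. The groups were chosen by the measured Ccnb1 value alone: an oocyte was placed in the Ccnb1-high group where its Ccnb1 count, divided by the total count of the library, exceeded 1300 CPM (counts per 1000000). This gave 3 Ccnb1-high oocytes and 5 other oocytes, of 32 single oocytes in the series. The rule used the measured values, so differences between the groups in transcripts of the same libraries are described here with no test as support, and Ccnb1 itself was left out of every comparison across genes.

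RNA of single mouse oocytes, genotype WT, was sequenced with 1 library per oocyte. Immature preantral follicles were either vitrified (cooled to a glass-like solid for storage) or left fresh, and were then grown in culture. GV oocytes were taken on day 8, 4 from fresh and 4 from vitrified follicles, and 24 metaphase II (MII) oocytes, 12 per treatment, were taken on day 9 after ovulation was induced with hCG. The labels call each oocyte a biological replicate without naming its mouse or culture, so p-values measure only the spread between these oocytes. The Ccnb1-high group holds fresh oocyte 3 and vitrified oocytes 1 and 2. The other group holds fresh oocytes 1, 2 and 4 and vitrified oocytes 3 and 4. Values per oocyte are given below in these orders.

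As background, a GV oocyte is held in meiotic prophase with its nucleus intact. Cyclin B1 binds the kinase CDK1, and the active pair drives breakdown of the nucleus and entry into the meiotic divisions. A fully grown oocyte makes little new RNA and relies on stored transcripts, many of which carry short poly(A) tails that are lengthened when maturation starts. Cytoplasmic polyadenylation elements in the 3′ untranslated region (UTR), bound by CPEB1, take part in this, and Ccnb1 is a long-studied example. The library kit primes cDNA on poly(A) tails, so both transcript abundance and tail length can enter a value.

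Ccnb1 lies on the minus strand at chr13:100778650-100786570 (mm10, GENCODE M21). Its annotated 3′ UTR of 1028 bases holds the motif TTTTAT at 3 places and TTTTAAT at 1 place on the transcript strand. The windows of 30 bases around them are shown because they are the element by which this transcript is best known. Capitals mark the motif, the windows run 5′ to 3′ along the transcript, and the middle pair overlap.
Ccnb1 chr13:100779247-100779276, minus strand: ccaagtatctttTTTTATgtaattatttat
Ccnb1 chr13:100779084-100779113, minus strand: ccaaggagatatTTTTATatgggttcattt
Ccnb1 chr13:100779069-100779098, minus strand: tatatgggttcaTTTTATcaacagtattcc
Ccnb1 chr13:100778776-100778805, minus strand: tctcatttgctgTTTTAATttatacatctg
The last of them ends 137 bases before the end of the annotated transcript. A match is a description of these letters and was not tested as a site of binding or polyadenylation.

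Unscaled, Ccnb1 was at 1543, 2440 and 1572 CPM in the 3 high oocytes. In the other oocytes it was at 994, 1084, 491, 631 and 987 CPM. The high oocyte nearest the threshold was thus fresh oocyte 3 and the nearest below it was fresh oocyte 2. On CPM scaled by the trimmed mean of M values (TMM), which is the scale of all later GV values, the same oocytes held 1823, 3148 and 1516 against 921, 987, 468, 572 and 934. The mean was 2162 ± 867 (SD, n = 3) in the high group and 776 ± 238 (SD, n = 5) in the other group. The group mean of the high oocytes rests most on vitrified oocyte 1.

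The high group held 1 of 4 fresh and 2 of 4 vitrified oocytes. Fisher's exact test, two-sided, gave p = 1, but with these 8 oocytes it could not give a p below 0.143, so it cannot show whether the division followed the treatment.

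**Figure D1:**
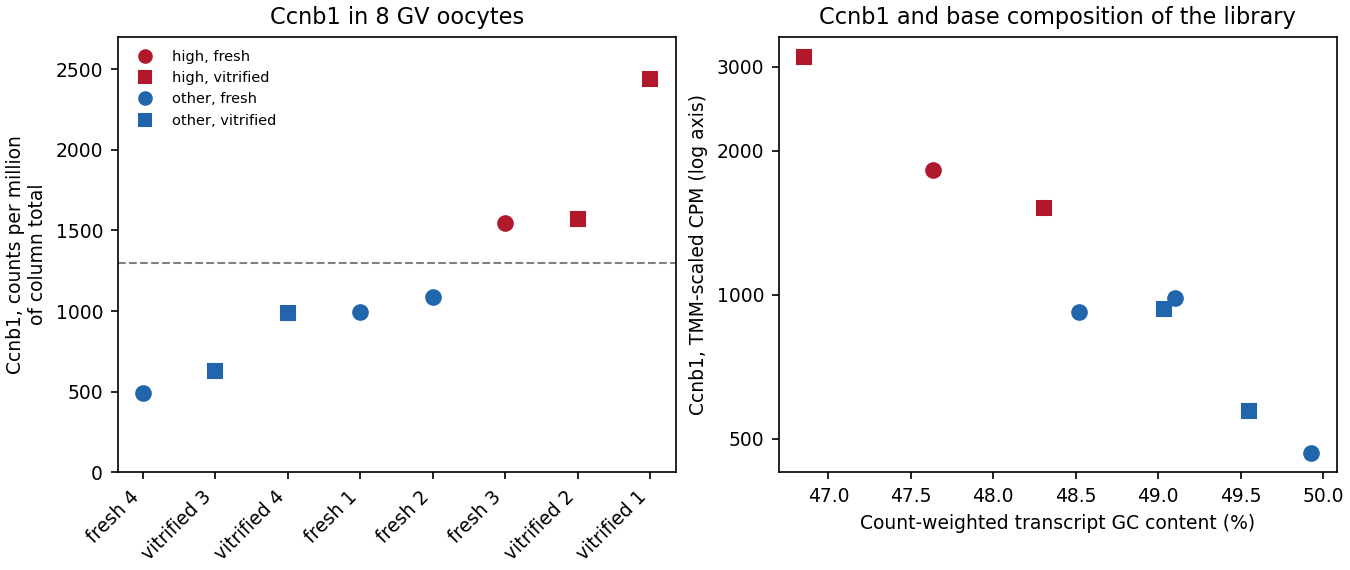
Left, Ccnb1 in CPM of the library total in each of the 8 GV oocytes, with the threshold of 1300 as a dashed line; right, TMM-scaled Ccnb1 (log axis) against the count-weighted GC content of the transcripts in the library, in percent. Each point is 1 oocyte, red for high and blue for other, round for fresh and square for vitrified; Ccnb1 is higher where the count-weighted GC content is lower.

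Library properties moved with the division. Depth ran from 10376642 to 15268533 counts in the high oocytes and from 14516197 to 17717909 in the others, and the 2 shallowest libraries were fresh oocyte 3 and vitrified oocyte 1, both high. The mean GC content of transcripts, weighted by their counts, was 47.6%, 46.9% and 48.3% in the high oocytes and 48.5%, 49.1%, 49.9%, 49.5% and 49.0% in the others, with no overlap. Over the 8 oocytes it had r = -0.97 and rho = -0.90 with log2 Ccnb1, and r = -0.92 without the 2 oocytes farthest from its median. The points share the library in which both were measured, and this is given as a description. The 50 most abundant genes held 16.1% to 24.2% of counts in high and 13.4% to 15.8% in other oocytes. After each library's trend with GC content and transcript length was removed, Ccnb1 was at 1350, 2207 and 1290 CPM in high and at 860, 1081, 638, 687 and 952 CPM in other oocytes. These are values of the gene that formed the groups and support nothing, and the lowest high one is under 1300, a threshold set on unscaled CPM. The part of base composition in the differences of other genes was not tested, and corrected values are given beside many of them. A difference shown without one may also change under the correction.

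All 11 oocyte markers examined, among them Zp1, Zp2, Zp3, Gdf9, Bmp15 and Ddx4, were above 1 CPM in all 8 oocytes. Their sum was 9672 to 12653 CPM in high and 11976 to 17136 CPM in other oocytes. Of 25 markers of granulosa and cumulus cells, 21 were in the table, and they summed to 283 to 438 CPM in high and 196 to 341 CPM in other oocytes. Serpine2, a secreted protease inhibitor, was the most abundant of them in every oocyte, at 82.96 to 344 CPM. Ptx3, a defining transcript of expanded cumulus, was at 0 in all 8. Of 12 markers of theca, stroma and vessels, 7 were in the table, at 21.5 to 36.2 CPM in high and 16.2 to 34.3 CPM in other oocytes. Both sums overlapped between the groups. Of the 14 granulosa and cumulus markers tested, 3 were above and 11 below 0 in log2 difference between high and other oocytes, 0 were called and 0 did not overlap. Their median was -1.31, or -1.52 after the GC content and length correction, the furthest from 0 of the lists with 10 or more tested genes. Within treatments it was -0.19 in fresh and -1.30 in vitrified oocytes. Only 4 of the 21 exceeded 1 CPM in all 8 oocytes, so most of these differences involve values near 0 and are uncertain. The part of residual somatic RNA was not tested.

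Across genes, the Ccnb1 division marked the far end of a gradation, with no clear break between the groups. A principal component analysis of 6275 genes without Ccnb1 placed 54.0% of the variance on the first component. The high oocytes lay at 43.1, 74.2 and 5.2 on it, and the others at 3.7, -25.8, -45.2, -38.6 and -16.6. Vitrified oocyte 2 stood next to fresh oocyte 1, which is in the other group. In Spearman's rho over the same genes it was closer to 3 oocytes of the other group, vitrified oocyte 4 (0.921), fresh oocyte 1 (0.915) and fresh oocyte 2 (0.895), than to fresh oocyte 3 (0.879) or vitrified oocyte 1 (0.835), the members of its own group.

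Of 11234 genes tested with the quasi-likelihood test of edgeR, 383 were called higher and 159 lower in the high oocytes at an adjusted p under 0.05, which is 3.41% and 1.42% of genes tested and 4.82% together. Since a transcript of these libraries chose the groups, nothing is read from these shares. For 886 genes (7.89%) every high oocyte was above every other oocyte, and for 874 (7.78%) every high oocyte was below. With column totals as the only scaling, 73 genes were called higher and 120 lower, and 517 were higher and 1246 lower without overlap. The median log2 difference over all genes tested was -0.05, with 5400 above and 5834 below 0. Without fresh oocyte 2, 3 or 4 or vitrified oocyte 1 or 3, edgeR called 0 genes, while 1777 to 2280 had an unadjusted p under 0.05. Without fresh oocyte 1, vitrified oocyte 2 or vitrified oocyte 4 it called 776, 1437 and 249. After correction for GC content and transcript length, an alternative added after the data were seen, 4 genes were called.

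The 12 transcripts furthest above the other oocytes, by the rule for named genes, differed by 2.41 to 3.90 in log2. Among them, 3, Sycp3, Tex11 and Tex12, are known for roles in meiotic prophase. The share of such genes among all genes tested was not counted, so nothing is read from this number. Sycp3, which encodes a lateral element protein of the synaptonemal complex, was at 305, 1058 and 118 CPM in the high oocytes and at 95.6, 40.0, 83.3, 36.9 and 52.7 CPM in the others. The groups did not overlap, but vitrified oocyte 2 lay close to fresh oocyte 1. The log2 difference was 3.00 ± 0.52 (SE), and 0.57 after the GC content and length correction, where the groups overlapped. Tex12, a central element protein of the same complex, was at 170, 59.7 and 51.2 CPM against 37.9, 3.44, 4.73, 14.6 and 15.1 CPM. Its log2 difference was 2.62 ± 0.62 (SE) and 0.83 after correction, where the groups overlapped. Tex11, which acts in meiotic crossing over, was at 165, 97.8 and 24.3 CPM against 23.5, 9.25, 3.81, 10.9 and 20.7 CPM. Fresh oocyte 3 led for both Tex11 and Tex12, while vitrified oocyte 1 led for Sycp3. The difference of Tex11 was 2.81 ± 0.57 (SE) and 2.08 after correction, where its groups also overlapped.

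Tank, which encodes an adaptor of TRAF proteins and the kinase TBK1 in innate immune signalling, had the largest difference of the rule. It was at 77.4, 211 and 58.2 CPM in the high oocytes and at 12.2, 4.57, 4.80, 0.602 and 16.6 CPM in the others. No other oocyte came near the lowest high one, and the log2 difference was 3.90 ± 0.69 (SE), or 2.83 after correction. Hat1, the acetyltransferase of newly made histone H4, was at 212, 567 and 132 CPM against 60.6, 36.9, 39.7, 25.5 and 86.3 CPM. Its groups stayed apart after correction, with a log2 difference of 2.61 ± 0.44 (SE) before and 1.90 after. Tyw5, an enzyme that modifies wybutosine in transfer RNA, was at 41.2, 87.2 and 27.5 CPM against 19.2, 7.29, 3.42, 1.15 and 9.56 CPM, a log2 difference of 2.67 ± 0.65 (SE) and 2.37 after correction. The rest of the 12 were Cyp20a1, a cytochrome P450, Dnajc5b, a J-domain co-chaperone, Glmn, an inhibitor of cullin-RING ubiquitin ligases, Naaladl2, Pdzph1 and Zfp979, with log2 differences of 2.41 to 2.84. After correction the groups overlapped for Zfp979, with a log2 difference of 0.71, and stayed apart for the other genes of this last set. Zfp979 belongs to a large zinc finger family in which reads can be shared between copies, so its value is uncertain.

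The 12 transcripts furthest below differed by -2.78 to -2.09 in log2. Plxnb2, a plexin receptor for semaphorins, was at 3.19, 2.77 and 5.43 CPM in the high oocytes and at 18.8, 14.8, 50.8, 26.4 and 21.05 CPM in the others. The groups were well apart and the log2 difference was -2.78 ± 0.55 (SE), or -1.62 after correction. Mier2, a component of histone deacetylase complexes, was at 54.7, 7.15 and 82.1 CPM against 129, 225, 296, 269 and 203 CPM. Dtx2, a ubiquitin ligase of the Deltex family, was at 20.04, 19.94 and 46.0 CPM against 62.5, 113, 198, 134 and 103 CPM. For both genes vitrified oocyte 2 was the highest of the high group and fresh oocyte 1 the lowest of the others. Mier2 differed by -2.22 ± 0.55 (SE) and Dtx2 by -2.09 ± 0.42 (SE) in log2, and by -1.33 and -1.06 after correction.

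Map1s, which encodes a microtubule-associated protein, was at 15.1, 9.22 and 25.4 CPM in the high oocytes and 50.9, 57.2, 135, 92.7 and 46.8 CPM in the others. It followed Ccnb1 in reverse over all 8 oocytes, with r = -0.99, which is a description of libraries that also differ in base composition. Its difference was -2.20 ± 0.46 (SE) in log2 and -0.83 after correction. The remaining genes were Slc12a7, a potassium-chloride cotransporter, Slc6a7, a proline transporter, Sh2d3c, a signalling adaptor, Ptprf, a receptor tyrosine phosphatase, Fcho1, a factor of clathrin-mediated endocytosis, Snph, a mitochondrial anchor on microtubules, Arhgef1 and Zfp628. Their log2 differences ran from -2.53 to -2.19. After correction the groups overlapped for Ptprf (-0.93) and Zfp628 (-0.45) and stayed apart for the rest of these.

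**Figure D2:**
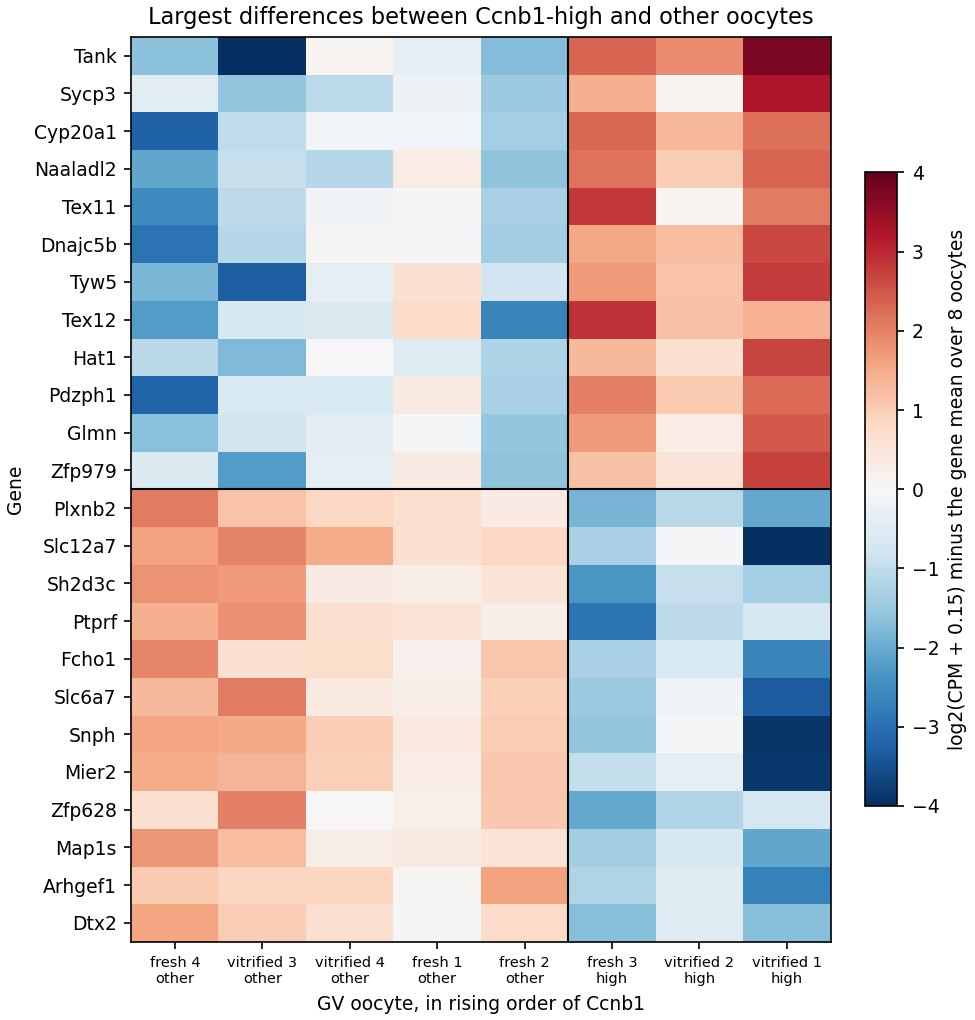
The 12 genes furthest above and the 12 furthest below in Ccnb1-high oocytes, by the rule for named genes, in each of the 8 GV oocytes ordered by Ccnb1. Colour is log2(CPM + 0.15) minus the mean of the gene over 8 oocytes, and values beyond 4 either way take the end colour; the groups are apart in every row, as the rule for these genes requires, with vitrified 2 and fresh 1 pale for many of them.

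The 10 genes whose log2 CPM was most like that of Ccnb1 over the 8 oocytes had r of 0.98 to 0.99. They were Trmt11, a transfer RNA methyltransferase, Unc50, Tmprss11a, a serine protease, Rchy1, a ubiquitin ligase, Gnai3, an inhibitory G protein subunit, Togaram1, Ndfip2, an adaptor of Nedd4 ligases, Bckdhb, an enzyme of branched-chain amino acid breakdown, Utp18, a factor of ribosomal RNA processing, and Clk1, a kinase of splicing factors. Trmt11 was at 146, 305 and 70.9 CPM in high and 49.5, 39.4, 13.7, 19.09 and 44.9 CPM in other oocytes. Clk1 was at 438, 865 and 320 CPM against 262, 206, 103, 146 and 170 CPM. Both were highest in vitrified oocyte 1 and lowest in fresh oocyte 4, as Ccnb1 was. Unc50 covered a narrower range, at 875, 1154 and 822 CPM against 620, 571, 396, 482 and 541 CPM. The 10 were picked from 6264 genes for this likeness, and count-weighted GC content itself had r = -0.97 with Ccnb1. After correction Trmt11, Tmprss11a, Togaram1, Ndfip2 and Bckdhb stayed apart between groups, with log2 differences of 0.73 to 1.51. Unc50, Rchy1, Gnai3, Utp18 and Clk1 then overlapped, with differences of 0.29 to 0.56.

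Of the 21 tested genes for CDK1 and its regulators, 13 were above and 8 below 0 in log2 difference, 2 were higher and 3 lower without overlap (15.7% of all genes tested did not overlap in either direction), and the median was 0.22. The median was -0.020 after correction, and it was -0.074 with column totals as the only scaling, a setting that moved the median of all genes from -0.05 to -0.32. Cdk1, the kinase itself, was at 335, 272 and 200 CPM in the high oocytes and at 193, 119, 141, 134 and 193 CPM in the others. The lowest high oocyte was only just above fresh oocyte 1 and vitrified oocyte 4, and the log2 difference was 0.79 ± 0.27 (SE), or 0.88 after correction. Ccnb2, which encodes cyclin B2, was at 341, 865 and 276 CPM against 177, 143, 284, 206 and 317 CPM. Its groups overlapped, since fresh oocyte 4 and vitrified oocyte 4 exceeded vitrified oocyte 2. Ccna2, cyclin A2, differed by -0.02 ± 0.26 (SE) in log2.

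Mastl, the Greatwall kinase that restrains the phosphatase opposing CDK1, was at 146, 349 and 169 CPM in the high oocytes and at 123, 83.6, 58.2, 49.4 and 71.1 CPM in the others. The groups did not overlap, and the log2 difference was 1.52 ± 0.35 (SE), or 1.00 after correction. Cdc25b, the phosphatase that activates CDK1 in mouse oocytes, went the other way, at 24.6, 24.9 and 39.7 CPM against 53.8, 59.1, 63.2, 79.6 and 97.6 CPM. It differed by -1.25 ± 0.34 (SE) in log2 and by -0.62 after correction. Wee2, the oocyte kinase that holds CDK1 inactive, overlapped between groups, at 491, 809 and 689 CPM against 579, 552, 444, 498 and 561 CPM.

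Of 11 genes for control of arrest by cyclic AMP, 4 were above and 7 below 0, with a median of -0.45 and -0.06 after correction. Adcy9, an adenylyl cyclase, was lower without overlap, at 4.67, 10.3 and 19.6 CPM against 23.6, 38.99, 42.3, 28.4 and 36.6 CPM. Gpr3, the receptor that keeps cyclic AMP high, was at 23.7, 5.19 and 35.7 CPM against 35.7, 52.7, 50.6, 56.5 and 27.7 CPM, with overlap. Of 11 genes of the Mos-MAPK pathway, 4 were above and 7 below 0, with a median of -0.50 and -0.05 after correction. Mos, the kinase that starts that pathway, overlapped between groups, and vitrified oocyte 1 stood far below the rest at 239 CPM, where the other 7 oocytes held 876 to 1493 CPM.

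Of 18 tested genes for the anaphase-promoting complex, the ubiquitin ligase that destroys cyclin B1, 9 were above and 9 below 0, with a median of -0.01. After correction the median was 0.17. Fzr1, the activator that holds cyclin B1 low in GV oocytes, was at 56.4, 38.0 and 103 CPM in the high oocytes and at 154, 185, 239, 217 and 174 CPM in the others. The groups did not overlap and the log2 difference was -1.56 ± 0.34 (SE), or -0.49 after correction. Cdc20, the activator used at anaphase, differed by 0.08 ± 0.25 (SE). Anapc10, a substrate-binding subunit, was at 253, 223 and 146 CPM against 106, 88.2, 96.5, 101 and 140 CPM, a log2 difference of 0.96 ± 0.27 (SE) and 0.17 after correction.

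Genes of the spindle, the kinetochore and cohesion had the highest median of the lists with 10 or more tested genes. Of 30 tested, 20 were above and 10 below 0. Without overlap, 7 were higher and 1 lower, beside 7.89% and 7.78% of all genes tested. The median was 0.48, or 0.25 after correction and 0.21 without vitrified oocyte 1. Mad2l1, a spindle checkpoint protein, was at 1125, 2040 and 670 CPM in the high oocytes and at 394, 282, 266, 248 and 421 CPM in the others. The groups were well apart, also after correction, with a log2 difference of 1.99 ± 0.32 (SE) before and 1.35 after. Spc25, a subunit of the Ndc80 kinetochore complex, was at 241, 755 and 317 CPM against 199, 127, 94.4, 114 and 114 CPM. Pttg1, securin, overlapped between groups, since vitrified oocyte 4 at 3535 CPM exceeded vitrified oocyte 2 at 3450 CPM, while vitrified oocyte 1 reached 15318 CPM. Bub1b, another checkpoint protein, was at 523, 965 and 1151 CPM against 1000, 1654, 1488, 1500 and 1388 CPM, with overlap.

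A list of transcripts known to be recruited for translation when mouse oocytes mature had 14 tested genes. In log2 difference 10 were above and 4 below 0. In the edgeR fit 3 were called higher and 0 lower, beside 3.41% and 1.42% of all genes tested. Without overlap, 4 were higher and 1 lower, beside 7.89% and 7.78% of all. The median was 0.35, or 0.017 after correction and 0.082 with column totals. Cnot7, a deadenylase of the CCR4-NOT complex, was at 657, 1173 and 369 CPM in the high oocytes and at 271, 187, 106, 162 and 214 CPM in the others. It had r = 0.97 with Ccnb1 over the 8 oocytes, and the log2 difference was 1.96 ± 0.35 (SE), or 1.23 after correction. Slbp, the stem-loop binding protein of histone transcripts, was at 2302, 2548 and 1518 CPM against 1053, 748, 881, 600 and 702 CPM. Btg4, the adaptor that brings CCR4-NOT to maternal transcripts, was at 7018, 3825 and 4512 CPM against 2648, 2385, 3303, 2085 and 3300 CPM. Slbp and Btg4 did not overlap between groups, but after correction the log2 difference of Slbp was 1.00 and that of Btg4 was -0.25. Plat, Dazl and Cnot6l overlapped between groups. Tex19.1 was the member lower without overlap, at 37.1, 14.5 and 68.1 CPM against 81.7, 103, 71.3, 80.5 and 82.1 CPM.

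Of 28 tested factors that store transcripts and act on their tails, 11 were above and 17 below 0. Their median was -0.27 and -0.11 after correction. In the edgeR fit 2 were called higher and 4 lower, beside 3.41% and 1.42% of all genes tested. Without overlap, 2 were higher and 6 lower, beside 7.89% and 7.78% of all. Cpeb1, the protein that binds cytoplasmic polyadenylation elements, was at 294, 408 and 489 CPM in the high oocytes and at 610, 732, 717, 738 and 588 CPM in the others. No oocytes overlapped, also after correction, with a log2 difference of -0.77 ± 0.25 (SE) before and -0.75 after. Lsm14b, an RNA-binding protein of oocyte storage particles, was at 93.3, 68.6 and 137 CPM against 227, 399, 276, 343 and 194 CPM. Its difference of -1.53 ± 0.32 (SE) in log2 was -1.49 after correction. Cpsf4, a subunit of the cleavage and polyadenylation factor, differed by -1.70 ± 0.38 (SE), and by -1.27 after correction. Of 24 genes of maternal mRNA decay, 10 were above and 14 below 0, with a median of -0.22 and -0.05 after correction. Tob2, which recruits deadenylases, and Cnot10, a CCR4-NOT subunit, were lower without overlap, by -1.61 ± 0.36 (SE) and -1.29 ± 0.33 (SE).

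Oocyte identity genes did not move one way. Of 18 tested, 8 were above and 10 below 0, with a median of -0.02 and -0.34 after correction. Gdf9, a growth factor that the oocyte secretes to its granulosa cells, was at 2230, 1581 and 2905 CPM in the high oocytes and at 4299, 3704, 5934, 4279 and 3526 CPM in the others. The groups did not overlap, also after correction, and the log2 difference was -0.96 ± 0.28 (SE) before and -0.80 after. Bmp15, its partner growth factor, overlapped and differed by 0.17 ± 0.27 (SE). Gja4, the connexin of the junctions between oocyte and granulosa cells, was at 650, 304 and 858 CPM against 984, 1099, 1588, 1527 and 1047 CPM. Zp3, a zona pellucida protein, overlapped, at 1550, 1705 and 1538 CPM against 1576, 1526, 3624, 1368 and 1686 CPM.

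Maternal effect factors, which the embryo needs after fertilization, had a median of -0.67, with 4 of 21 above and 17 below 0. Without overlap, 1 was higher and 4 were lower, beside 7.89% and 7.78% of all genes tested. The median was -0.25 after correction and -0.40 with the replicate numbers as a block. Dppa3, which protects the maternal genome from loss of methylation, went against this, at 10082, 21394 and 3502 CPM in the high oocytes and at 4977, 2057, 3397, 1676 and 4394 CPM in the others, with overlap. Trim28, a corepressor at imprinted regions, differed by -1.21 ± 0.35 (SE) in log2 and by -0.02 after correction.

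Of 36 proteasome subunits tested, 24 were above and 12 below 0. Without overlap, 9 were higher and 0 lower, beside 7.89% and 7.78% of all genes tested. The median was 0.34, or 0.14 after correction and 0.19 without vitrified oocyte 1. Psmc2, a base ATPase, was at 460, 762 and 385 CPM in the high oocytes and at 227, 178, 201, 127 and 286 CPM in the others. Its groups stayed apart after correction, with a log2 difference of 1.39 ± 0.30 (SE) before and 1.13 after. Psmc6, another base ATPase, was at 167, 300 and 85.6 CPM against 70.4, 17.2, 43.4, 24.8 and 50.8 CPM, and overlapped after correction. Of 86 cytosolic ribosomal protein genes, 16 were above and 70 below 0. Without overlap, 0 were higher and 9 lower, beside 7.89% and 7.78% of all genes tested. The median was -0.36, or -0.53 after correction, -0.63 without fresh oocyte 3 and -0.24 without vitrified oocyte 1. Within treatments it was -0.05 in fresh and -0.52 in vitrified oocytes. Their summed level overlapped between groups, at 20316 to 31800 CPM in high and 24188 to 30230 CPM in other oocytes. Rps12 was at 80.6, 61.2 and 65.9 CPM against 155, 235, 164, 170 and 96.7 CPM, a log2 difference of -1.24 ± 0.31 (SE) and -1.29 after correction. Ribosomal protein genes have many processed copies in the genome, so reads can be split among copies and single values are uncertain.

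**Figure D3:**
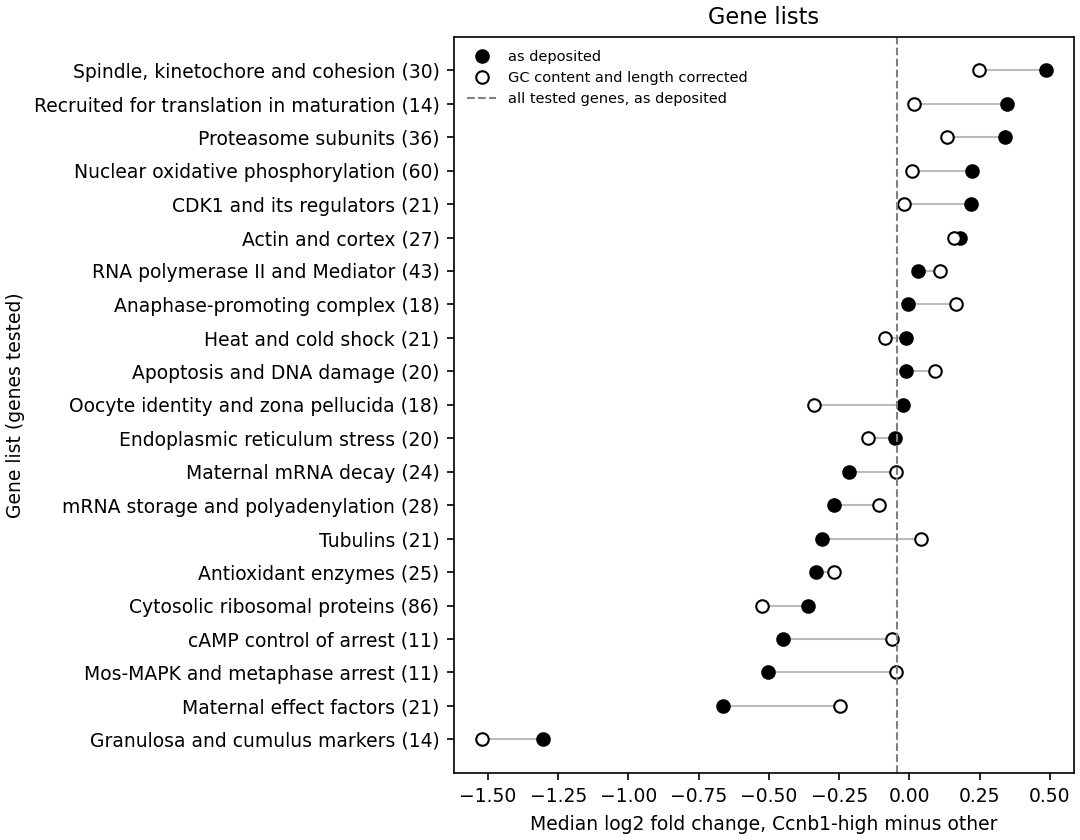
Median log2 fold change, Ccnb1-high minus other, of each gene list with at least 10 tested genes, with the number tested in brackets. Filled points are the values as deposited, open points the values after the GC content and length correction, and the dashed line the median of -0.05 over all genes tested; the spindle list is highest at 0.48 and moves to 0.25, while the ribosomal list moves away from 0, from -0.36 to -0.53.

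The differences followed the base composition of transcripts. When tested genes were put into 10 bins of nearly equal size by transcript GC content, the median log2 difference went down step by step from 0.84 in the lowest bin (32.8% to 41.7% GC) to -1.04 in the highest (57.7% to 72.9%). After the correction, which removes such a trend by construction, the medians lay between -0.10 and 0.08. The median GC content was 44.0% for the genes higher without overlap and 55.2% for those lower without overlap, where that of all genes tested was 49.6%. Transcript length showed less of a trend, with a median of 0.11 in the shortest of 5 bins and of -0.10 to -0.05 in the others. With the correction, 525 genes were higher and 484 lower without overlap, against 886 and 874 without it.

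**Figure D4:**
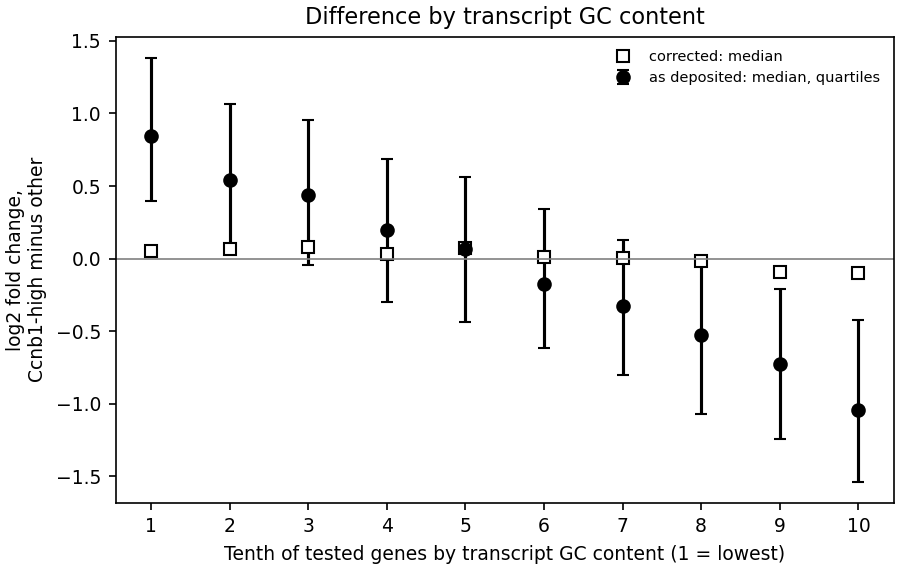
Log2 fold change, Ccnb1-high minus other, of tested genes in 10 bins of transcript GC content from lowest to highest. Filled points with bars are the median and quartiles as deposited and open squares the median after the GC content and length correction; the deposited medians go from 0.84 to -1.04 and the corrected ones stay between -0.10 and 0.08.

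The 4 genes called after the correction were all higher in the high oocytes, and they are named here after their values were seen. Umodl1, which encodes an uromodulin-like protein with a zona pellucida domain, was at 6409, 8806 and 3870 CPM in the high oocytes and at 2931, 2090, 2316, 1879 and 3045 CPM in the others. Wdr33, a subunit of the polyadenylation machinery that takes part in binding the AAUAAA signal, was at 253, 334 and 280 CPM against 163, 150, 140, 188 and 164 CPM. In both genes all 3 high oocytes were clear of the others. Crb1, a cell polarity protein, was at 145, 213 and 86.3 CPM against 42.3, 28.3, 19.0, 22.9 and 44.2 CPM. Kcnn2, a potassium channel, was at 121, 107 and 82.7 CPM against 48.5, 24.7, 25.5, 23.7 and 24.05 CPM. The corrected log2 differences were 2.28 ± 0.35 (SE) for Umodl1, 1.66 ± 0.25 (SE) for Wdr33, 2.13 ± 0.32 (SE) for Crb1 and 2.58 ± 0.37 (SE) for Kcnn2. Before correction they were 1.38, 0.85, 2.24 and 1.82.

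The motifs TTTTAT and TTTTAAT were searched on the transcript strand in the last 100 bases of the annotated transcript of each gene with a long enough 3′ UTR. This window misses the motifs of Ccnb1 itself, the last of which ends 137 bases before the transcript end. Among transcripts listed as recruited for translation, it held none for Mos and Dazl, and held a motif for Btg4, Cnot7, Plat and Wee2. The shares below thus cover only motifs near the annotated end. Of 10663 tested genes, 2130 (19.98%) held at least 1 of them, against 23.6% of the genes higher and 17.7% of those lower without overlap. The median GC content of these windows was 31% in the first set, 40% in the second and 35% over all genes, and the motifs hold neither G nor C. Among genes whose window held 9% to 31% GC, 36.3% of the higher and 35.8% of the lower genes held a motif, beside 34.9% of all. With 32% to 40% GC the shares were 12.0%, 23.3% and 17.3%, and with 41% to 77% they were 7.03%, 6.54% and 5.47%. Windows from genes on both sides are shown, with the motif in capitals (mm10, 5′ to 3′ along the transcript), since the motif occurred in genes of either direction.
Cnot7 (higher), chr8:40493038-40493067, minus strand: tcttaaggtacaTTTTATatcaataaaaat
Sycp3 (higher), chr10:88473173-88473202, plus strand: tttgtttgtttgTTTTAATagttgttctct
Gdf9 (lower), chr11:53437854-53437883, plus strand: agagtgctgtggTTTTATgtgacggaagaa
Dtx2 (lower), chr5:136032825-136032854, plus strand: ttatacctcagaTTTTATttgcaataaaga

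The same division was described within each treatment. Among fresh oocytes 1 high oocyte was set against 3 others, and among vitrified oocytes 2 against 2, and these 2 comparisons share no oocyte. Over 6275 genes the log2 differences had r = 0.64 and rho = 0.64 between treatments, and 72.8% of genes had the same sign. After the correction the values over 6235 genes were r = 0.42 and rho = 0.40, and 64.1% had the same sign. Genes within a library are not independent replicates, and the oocytes were placed in both comparisons by a transcript of the same libraries. Tank differed by 3.56 in fresh and 4.99 in vitrified oocytes, Mad2l1 by 1.86 and 1.85, Fzr1 by -1.75 and -1.64, and Cpeb1 by -1.22 and -0.56. The interaction of the division with treatment rests on 1 fresh high oocyte. The edgeR fit called 0 genes for it, while 307 (2.73%) had an unadjusted p under 0.05, and nothing is read from that count.

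The labels' own comparison, of vitrified with fresh GV oocytes, uses a label that the rule did not use. It was fitted with the division as a term, so the fit itself depends on the rule. The edgeR test called 0 of 11235 genes, while 351 (3.12%) had an unadjusted p under 0.05, against 200 without the term. The limma-voom fit also called 0, and 401 genes had an unadjusted p under 0.05. A DESeq2 fit called 6 genes. Of these, Tmem51 was higher, and Acsm4, Mrm3, Pld4, Prss12 and Rerg were lower in vitrified oocytes, all named after their values were seen. A low count of calls does not show that treatments were alike.

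MII oocytes were not used by the rule, and their levels are on CPM scaled by TMM over all 32 libraries. On that scale Ccnb1 was at 376 to 779 CPM with a median of 704 in the 5 other GV oocytes, at 1187 to 2439 with a median of 1467 in the 3 high ones, and at 5275 to 13334 with a median of 7719 in the 24 MII oocytes. The highest GV oocyte thus lay below the lowest MII oocyte. Stage cannot be told apart from the form of the counts, which are whole in GV and partly fractional in MII oocytes. Trmt11 had medians of 31.1, 118 and 296 CPM in other, high and MII oocytes, and Clk1 had 135, 353 and 648 CPM. Cnot7 had 148, 528 and 2179 CPM in that order, and Slbp 591, 1852 and 7452 CPM. These genes had their highest median at MII. Sycp3 had medians of 41.9, 245 and 194 CPM, Cyp20a1 of 3.65, 34.0 and 3.73 CPM, and Umodl1 of 1860, 5157 and 141 CPM, so the high GV oocytes held the highest of their 3 medians. The genes named here are examples. By mean log2 CPM, MII exceeded high GV oocytes for 304 of 727 genes higher without overlap at the floor of 16 CPM. The same held for 2724 of 6275 genes at that floor, 2 of the 12 furthest above and 9 of the 10 most like Ccnb1. The comparisons of high and of MII with other GV oocytes share the 5 other oocytes.

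**Figure D5:**
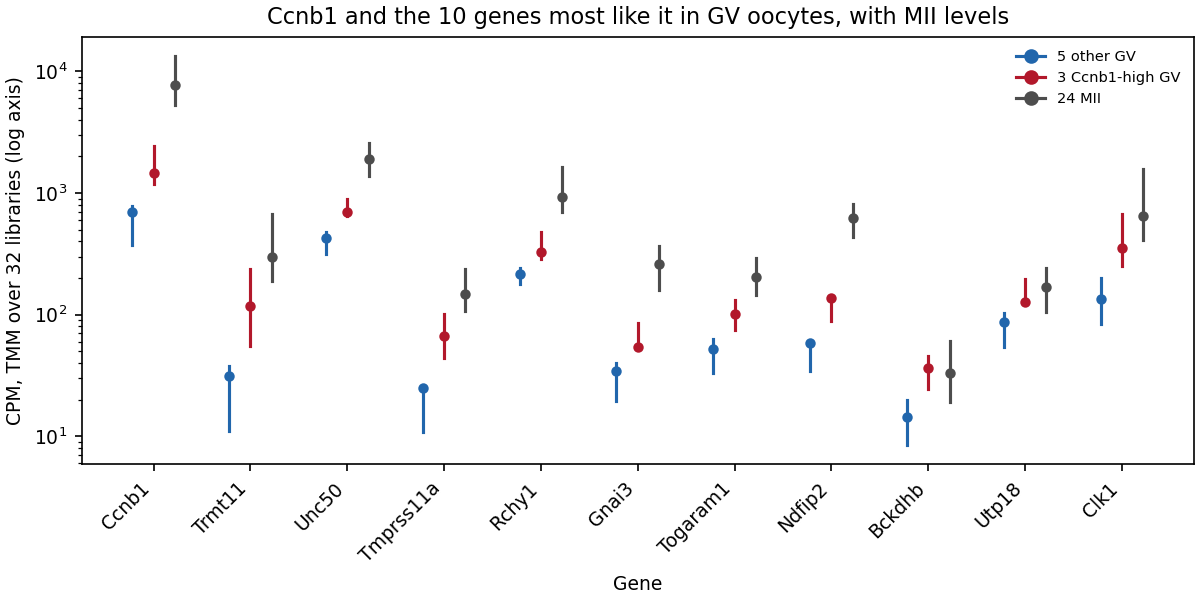
Levels of Ccnb1 and of the 10 genes most like it in GV oocytes, in CPM scaled over 32 libraries on a log axis. GV counts are whole and MII counts are partly fractional. Points are medians and lines run from the lowest to the highest oocyte, for 5 other GV (blue), 3 Ccnb1-high GV (red) and 24 MII oocytes (grey); for Ccnb1 the MII range of 5275 to 13334 lies above all GV oocytes, while Bckdhb is about level between high GV and MII.

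The 24 MII oocytes also vary in Ccnb1. Pearson's r with Ccnb1 had a median of 0.43 over 726 genes that were higher in high GV oocytes without overlap and passed a floor of 16 CPM, 623 of them above 0. It had a median of -0.46 over 568 genes that were lower, 67 of them above 0, and of -0.02 over all 6264 genes, 3033 of them above 0. Genes past that floor whose groups did not overlap made up 11.6% (higher) and 9.05% (lower) of 6275. Of the 12 genes furthest above in GV, 11 had r above 0, up to 0.70 for Hat1, and Cyp20a1 had -0.25. Of the 12 furthest below, 0 had r above 0, and the range was -0.75 for Map1s to -0.26 for Slc6a7. For the 10 genes most like Ccnb1 in GV oocytes the median was 0.46 with 8 above 0 over the 24 MII oocytes, Gnai3 being at -0.26. It was 0.056 with 5 above 0 within fresh and 0.56 with 9 above 0 within vitrified MII oocytes. The median of the 726 higher genes was 0.41 within fresh and 0.54 within vitrified MII oocytes. These are descriptions over oocytes that share base composition with Ccnb1 in the library. The count-weighted GC content had r = -0.70 and rho = -0.57 with Ccnb1 over the 24 MII oocytes, and r = -0.68 without the 2 farthest from its median. By the same 10 bins of transcript GC content the median r of genes ran from 0.31 in the lowest to -0.26 in the highest. Within fresh MII oocytes that trend was smaller, from 0.26 to -0.05, and the GC content there had r = -0.61, or -0.35 without the 2 farthest oocytes. The share of base composition in these relations was not tested.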

How the data were processed

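RNA of 8 GV and 24 MII oocytes was analysed from 1 table. Per the submitters' processing notes, HISAT2, featureCounts and mm10 were used, and versions, settings and strand use are not given in the sources used here. GV values in the deposited table are whole counts. MII values resemble expected or estimated counts deposited by the authors, with 11.7% to 19.7% fractional values in an oocyte, and were used without rounding. Of 13202 entries, 27 exact repeats were removed, leaving 13175 genes. Every gene sums to 10 or more over MII oocytes, while 376 genes are at 0 in all GV oocytes. Genes with low MII sums thus appear to have been left out, although single MII values of 0 remain. Genes present in GV but nearly absent in MII oocytes, markers among them, may therefore be missing. In the table, 0 genes are mitochondrially encoded. Depth was 10376642 to 17717909 counts in GV and 5307042 to 12225738 in MII oocytes, and no interval for counting error alone is given.

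Genes were filtered with filterByExpr (minimum count 10, total 15), scaled by TMM over the 8 GV libraries and fitted with the quasi-likelihood F test of edgeR 4.0.16 in R 4.3.3, with Benjamini-Hochberg adjustment at 0.05. Log2 CPM values, used for principal components, correlations and differences within treatments, have a prior count of 2. Log2 fold changes of edgeR use its default prior count. Errors are standard errors (SE) or standard deviations (SD). The SE of an edgeR log2 fold change is its absolute value divided by the square root of its F statistic. DESeq2 1.42.0 and limma 3.58.1 were alternatives. The correction for GC content and transcript length fits each library's smooth trend over genes as an offset. Symbols were matched to GENCODE M21 for 13059 of 13175 genes. The edgeR step was tested on simulated counts.

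The members, gene lists, named genes and tests were chosen with earlier results of these data known. Named genes had a mean of at least 16 CPM, an established symbol and groups without overlap (12 per direction), or the 10 highest r with Ccnb1. Others are up to 3 members per list with the largest difference, and a set fixed by name. Some are left out of the text. The list of replication-dependent histones matched 0 genes by its symbols and is not reported. Overlapping and antisense genes cannot be told apart where counting ignored strand.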

Additional observations from a re-analysis of the deposited data

Results flagged for a closer look

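In the group of 5 other oocytes, Zp3 stood apart in fresh oocyte 4, at 3624 CPM where the other 4 held 1368 to 1686 CPM. Casp8, an initiator caspase, stood apart in vitrified oocyte 4, at 56.3 CPM against 26.9 to 34.5 CPM. Kcnn2 stood apart in fresh oocyte 1, at 48.5 CPM against 23.7 to 25.5 CPM. Each of these lay further from its nearest neighbour, relative to the range of its group, than chance gives in about 1 of 20 groups, and 103 groups were examined.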

How the results depend on the processing

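Genes called higher and lower numbered 383 and 159. They were 73 and 120 with column totals only, 852 and 651 with DESeq2 and 4 and 0 with the GC content and length correction. They were 0 and 0 (516 genes at an unadjusted edgeR p under 0.05) without the 2 shallowest libraries, which left 1 high oocyte, assumed to vary like the others. Lower calls were 330 with a stricter filter and 80 with limma-voom. Leaving out 1 oocyte gave 0 to 791 higher and 0 to 646 lower calls. Genes higher without overlap numbered 886, and 517 with column totals, 525 after the correction, 2101 without the 2 shallowest libraries and 988 to 1776 without 1 oocyte. Genes lower without overlap numbered 874, and 1246 with column totals, 484 after the correction, 1850 without the 2 shallowest libraries and 988 to 1990 without 1 oocyte. Genes tested numbered 11234 in the main fit, 12079 without the 2 shallowest libraries and 11020 to 11670 without 1 oocyte. A group of fewer oocytes has fewer values to keep apart, so counts without overlap rise by construction when oocytes are left out. Higher counts there are not read as a clearer division. The vitrified comparison gave 6 calls with DESeq2.

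Oocytes of the same replicate number were not alike throughout (r of same-numbered fresh and vitrified oocytes 0.12, -0.03, -0.36 and 0.17). The library names carry other numbers, by which fresh 2, 3 and 4 match vitrified 1, 2 and 3. Those pairs had r of -0.16, 0.077 and 0.29, and no fit used them as blocks. The fit with the replicate block gave 168 higher and 90 lower calls, and a median of -0.40 for maternal effect factors.

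With column totals only, list medians were -0.074 for CDK1 and its regulators, 0.18 for the spindle, 0.082 for recruited transcripts, -0.89 for maternal effect factors, -0.64 for ribosomal proteins and 0.037 for the proteasome. After the correction they were -0.020, 0.25, 0.017, -0.25, -0.53 and 0.14. Without the 2 shallowest libraries they were 0.28 for the spindle, -0.36 for maternal effect factors and 0.15 for the proteasome. Without 1 oocyte they ran from 0.12 to 0.35, 0.21 to 0.67, 0.27 to 0.46, -0.76 to -0.53, -0.63 to -0.24 and 0.19 to 0.39. The causes were not tested. Of 120 named genes, 57 moved by more than the spread within groups under the correction and 11 changed sign; of 121, 57 moved and 6 changed sign without the 2 shallowest libraries. Thinning to the lowest depth gave 410 higher and 179 lower calls.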

Other observations

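Further gene groups were described in the same division. Nuclear genes of oxidative phosphorylation, which encode subunits of the respiratory chain, had 44 of 60 above and 16 below 0, with a median log2 difference of 0.22 and 0.01 after the GC content and length correction. RNA polymerase II and Mediator genes had a median of 0.03. Among them Med7, a Mediator subunit, was at 581, 926 and 281 CPM in the high oocytes and at 247, 115, 136, 95.6 and 174 CPM in the others, without overlap, and overlapped after correction. Genes of actin and the cortex had a median of 0.18. Rdx, radixin, which links actin to the membrane, was at 3826, 3026 and 1822 CPM against 1661, 1298, 862, 1279 and 1197 CPM, without overlap before or after correction. Tubulins had a median of -0.31 and 0.04 after correction.

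Stress genes showed no common direction. Medians were -0.01 for heat and cold shock, -0.05 for endoplasmic reticulum stress, -0.01 for apoptosis and DNA damage and -0.68 for 8 immediate-early genes. In that order they were -0.09, -0.15, 0.09 and 0.07 after correction. Antioxidant enzymes had a median of -0.33 and -0.27 after correction, with 9 of 25 above and 16 below 0. Sod1, the cytosolic superoxide dismutase, was at 401, 318 and 488 CPM in the high oocytes and at 723, 1066, 1077, 905 and 601 CPM in the others, a log2 difference of -1.12 ± 0.28 (SE) that was also -1.12 after correction. Casp8 was at 72.6, 242 and 81.98 CPM against 34.5, 32.4, 26.9, 32.05 and 56.3 CPM. Bcl2l1, an inhibitor of apoptosis, was at 64.9, 24.9 and 87.5 CPM against 88.3, 222, 165, 154 and 112 CPM, where vitrified oocyte 2 was just below fresh oocyte 1. Inha, the inhibin alpha subunit of granulosa cells, was at 0.922 to 59.6 CPM over the 8 oocytes, with overlap between the groups. The 5 tested markers of theca and stroma had a median of 0.39, at levels under 30 CPM in each oocyte. Within treatments the median was -0.52 in fresh and -0.20 in vitrified oocytes. Of the 7 in the table, 1 exceeded 1 CPM in all 8 oocytes, and no direction is read from these values.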
